A study of Caenorhabditis elegans with 12 samples.

Results

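The caenacins (cnc genes) are a family of small secreted peptides of Caenorhabditis elegans, and 10 of them, cnc-2 to cnc-11, are described here across salt and food in young larvae. Members were chosen by gene symbol: 8 of the 10 carry their symbol in the authors' deposited result tables, which were filtered on low counts. The other 2, cnc-5 and cnc-9, have no row in those tables and were found among the 44968 count rows by their RefSeq name. The kit used does not keep strand, but no exon of a member overlaps an exon of another gene in the Ensembl annotation of WBcel235. Reads shared between close family copies could still be split or lost in the authors' counting.

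All larvae were of the wild-type strain N2, which had been kept on Escherichia coli OP50. Embryos were freed from adults by bleaching, placed on plates and left for 24 h at 25 °C, after which whole L1 larvae were frozen for RNA. There were 4 groups of 3 biological replicates. At 100 mM NaCl, larvae with OP50 form the fed low-salt group and those without it the unfed low-salt group. At 500 mM NaCl, they form the fed high-salt group and the unfed high-salt group. The replicates are lettered A to C. Every group is from 1 time point, so no group shows the level before treatment. Libraries were made from poly(A) RNA. The question the design poses is how larvae held at the first stage by salt differ from those held there by lack of food. Only the fed low-salt group had both food and low salt. Comparisons with that group may thus also set growth against arrest, which cannot be told apart here from salt or food.

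Caenacins are rich in glycine, are made mainly by the epidermis, and act against microbes at the body surface. They resemble the antimicrobial members of the nlp family, such as nlp-29. Infection by the fungus Drechmeria coniospora raises both families by different routes: cnc-2 through the DBL-1 signal of the TGF-beta type, and nlp-29 through the p38 MAP kinase PMK-1 in the epidermis. Expression of nlp-29 also answers to wounding and to high osmolarity.

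Reads on genes ranged from 5613260 to 76542711 per library. Of these, 81.8% were ribosomal RNA in fed high-salt C, against 1.32% to 39.9% in the other 11 libraries, and reads outside ribosomal RNA ranged from 3167905 to 74258237. The share of reads that aligned was 38.6% in unfed high-salt A and 70.1% to 91.3% in the others. All 10 epidermal marker genes had reads in every group. Their summed level ran from 903 to 1362 CPM (counts per 1000000 reads after TMM scaling) in fed and from 880 to 1494 in unfed larvae at low salt. At high salt it ran from 622 to 747 CPM in fed and from 367 to 672 CPM in unfed larvae. This sum was lower at high salt, but its genes went both ways: over all 12 libraries, che-14, dpy-7, nhr-23 and rol-6 lay lower in every high-salt library, elt-3 and nhr-25 lay higher, and the other 4 overlapped. The collagen gene rol-6 went from a mean of 418 to 1.61 CPM with food, and nhr-25 from 31.5 to 74.2 CPM. The 7 intestinal markers summed to 3529 to 7348 CPM at low and 1460 to 2496 CPM at high salt, and the 5 pharyngeal markers to 614 to 1608 CPM at low and 1357 to 4705 CPM at high salt. These lists also went both ways. Of the intestinal genes, act-5, asp-1, elt-7, ges-1 and ifb-2 lay lower in every high-salt library and elt-2 higher. Of the pharyngeal genes, ceh-22 and pha-4 lay higher and phat-1 lower, and the rest of both lists overlapped. The share of all genes that split like this over the 12 libraries was not counted. The 5 germline markers summed to 344 to 375 CPM in fed low-salt libraries and to 43.1 to 114 CPM in all others. The part of these shifts in the changes below was not tested. In RNA from whole larvae, fewer cells of a type and less RNA per cell cannot be told apart.

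High salt went with changed levels of some caenacin transcripts and not of others. In fed larvae at 500 mM NaCl, cnc-5, cnc-6, cnc-7 and cnc-11 were higher and cnc-3 was lower than at 100 mM. In unfed larvae the same 5 genes passed the test in the same directions, and cnc-8 was also higher. A gene is said to have passed, risen or fallen where edgeR's quasi-likelihood test, fitted to all 18028 genes kept by the count filter, gave a Benjamini-Hochberg adjusted p under 0.05. Of the 10 members, 9 passed that filter, and cnc-9 did not.

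With food, 4 of the 9 tested members were higher and 1 was lower at high salt, where 16.1% of all tested genes were higher and 22.1% lower. Without food, 5 were higher and 1 lower, against 6.72% and 11.2% of all tested genes. In each feeding state, 5 of the 9 had library ranges that did not overlap between salt levels. Over all tested genes this share was 62.5% with food and 29.1% without. The median log2 fold change of the 9 members was 0.36 with food and 1.01 without, and these medians were the same with cnc-5 set to its bound given below. Over all tested genes the medians were 0.12 and 0.08.

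**Figure D1:**
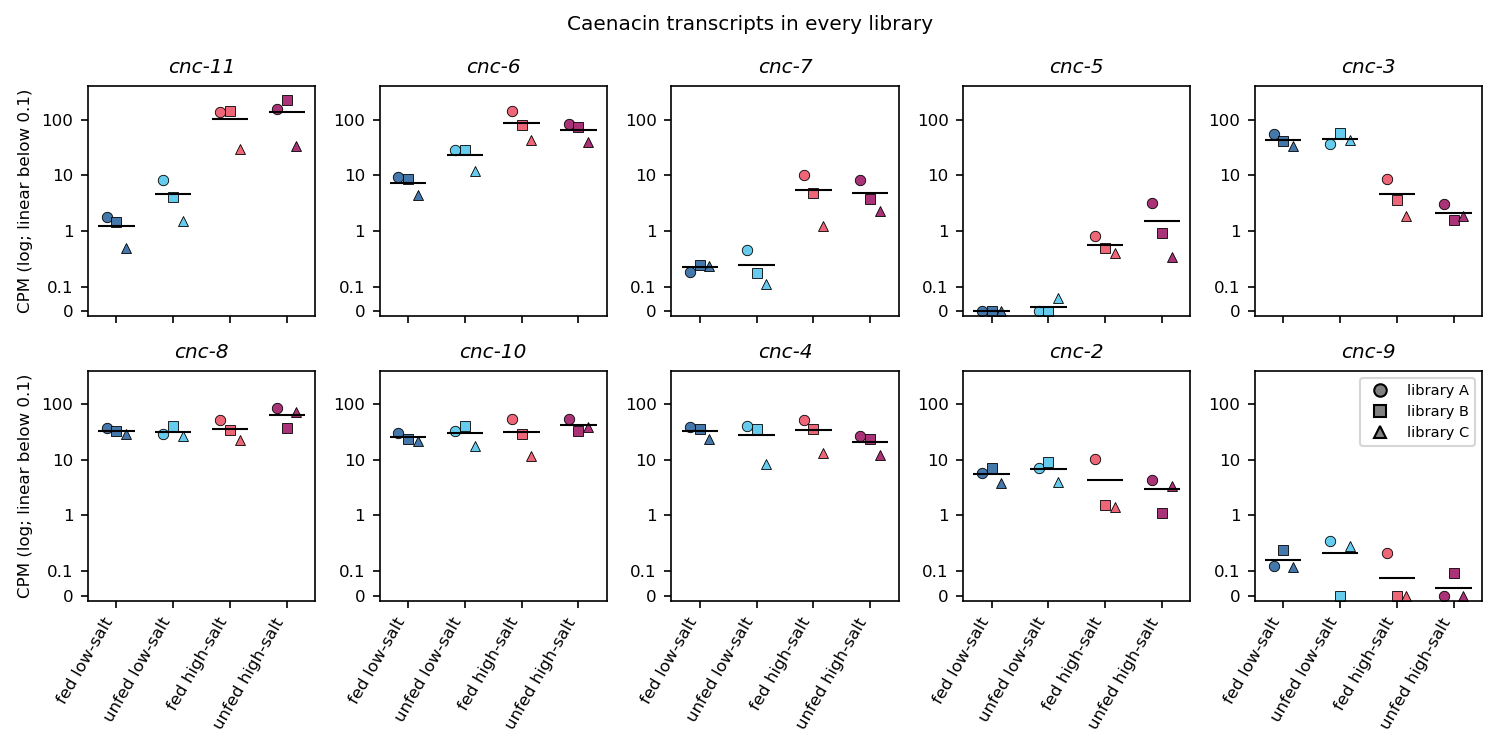
Level of each of the 10 caenacin transcripts in every library, in CPM on an axis that is logarithmic above 0.1 and linear below it. Points are single libraries, with shape giving the replicate letter, and bars are the means of 3 libraries. In the panels of cnc-11, cnc-6, cnc-7 and cnc-5 all 6 high-salt libraries stand above all 6 low-salt libraries, and in the panel of cnc-3 all 6 stand below. How many of all genes split in this way was not counted. Between salt levels within 1 feeding state, 62.5% of all tested genes had no overlap of libraries with food and 29.1% without.

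From low levels at low salt, cnc-11 (R09B5.13) reached some of the highest caenacin levels at high salt. Fed low-salt libraries A, B and C held 1.77, 1.43 and 0.489 CPM, and unfed low-salt libraries 8.03, 4.07 and 1.5 CPM. Fed high-salt libraries held 139, 142 and 29.2 CPM, and unfed high-salt libraries 157, 226 and 33.1 CPM. Every high-salt library was above every low-salt library, and the C library was the lowest of its group each time. The log2 fold change of high over low salt was 6.52 ± 0.95 (SE) with food and 4.93 ± 0.86 without, with edgeR adjusted p of 0.000180 and 0.00135. With both libraries that stand apart left out, these log2 fold changes were 6.95 and 4.89.

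A gene with a sizeable level in all groups, cnc-6 (Y46E12A.1), lies on chromosome III, away from the other members. Its fed low-salt libraries held 9.14, 8.49 and 4.36 CPM and its unfed low-salt libraries 28.7, 27.9 and 12.1 CPM. At high salt it held 142, 80.2 and 42.6 CPM with food and 82.8, 74.6 and 38.9 CPM without. The groups thus form steps: unfed stood above fed at low salt, and both high-salt groups stood above both low-salt groups with no overlap. The log2 fold change of high over low salt was 3.61 ± 0.49 with food and 1.51 ± 0.44 without, with edgeR adjusted p of 4.74e-05 and 0.0267. The call without food was lost on leaving out unfed low-salt B or C or unfed high-salt A or B, with adjusted p of 0.0513, 0.0876, 0.0605 and 0.0808.

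Low levels under low salt marked cnc-7 (F53H2.2). Fed low-salt libraries held 0.183, 0.239 and 0.238 CPM, from 3, 4 and 18 reads, and unfed low-salt libraries 0.449, 0.175 and 0.111 CPM, from 9, 4 and 2 reads. At high salt it held 9.95, 4.79 and 1.22 CPM with food and 8.17, 3.71 and 2.25 CPM without. High- and low-salt libraries did not overlap, although the highest fed high-salt library held several times the lowest. The log2 fold change of high over low salt was 4.57 ± 0.80 with food and 4.21 ± 0.79 without, with edgeR adjusted p of 0.000368 and 0.00140.

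Reads of cnc-5 (R09B5.10), the shortest member with 207 bases of exon, were almost confined to high salt. None of the 3 fed low-salt libraries had a read, and the unfed low-salt libraries had 0, 0 and 1. Fed high-salt libraries had 15, 8 and 2 reads (0.806, 0.485 and 0.406 CPM), and unfed high-salt libraries 28, 20 and 6 reads (3.22, 0.916 and 0.346 CPM). With food the high-salt mean was at least 4.22-fold higher than the level that 3 reads per library give in the fed low-salt group, 0.134 CPM on average. Without food, 54 reads against 1 gave a ratio of 68.8, with an exact 95% interval of 11.8 to 2769 that covers counting error only. The edgeR adjusted p was 0.00689 with food and 0.0153 without. These calls rest on few reads: leaving out fed low-salt C gave 0.0522 with food, and leaving out unfed low-salt A or B gave 0.0587 and 0.0859 without.

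The opposite course was that of cnc-3 (R09B5.8). Fed low-salt libraries held 55.2, 40.6 and 32.9 CPM and unfed low-salt libraries 36.3, 57.5 and 42.7 CPM. At high salt the levels were 8.39, 3.64 and 1.83 CPM with food and 2.99, 1.56 and 1.85 CPM without. Every high-salt library was below every low-salt library. The gene fell by 3.13 ± 0.42 on the log2 scale with food and fell by 4.46 ± 0.45 without, with edgeR adjusted p of 4.23e-05 and 8.01e-06. These were the smallest adjusted p-values among the members in each comparison, and over the 20 alternative settings they stayed at or under 0.000593 and 6.52e-05.

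On chromosome X lies cnc-8 (F41E7.8), which passed once. It held 37.4, 33.3 and 29.1 CPM in fed low-salt, 29, 40.3 and 26.8 CPM in unfed low-salt and 52.1, 34.1 and 22.5 CPM in fed high-salt libraries. Unfed high-salt libraries held 85.5, 36.7 and 71.4 CPM, and B fell within the range of the other groups. Its log2 fold change of high over low salt was 1.01 ± 0.33 without food (edgeR adjusted p = 0.0471) and 0.13 with food, with a 95% interval of -0.63 to 0.90 (adjusted p = 0.764). The call without food was lost in 11 of 20 alternatives, and without unfed high-salt A and fed high-salt C together the log2 fold change was 0.81 (adjusted p = 0.0631).

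No test passed for cnc-10, cnc-4 and cnc-2. The levels of cnc-10 (VK10D6R.1) averaged 25.3 ± 4.37 CPM in fed and 30.04 ± 11.6 CPM in unfed larvae at low salt (SD, n = 3). At high salt they averaged 32 ± 21.8 CPM with food and 41.7 ± 10.4 CPM without. Its log2 fold change of high over low salt was 0.36 with food (95% interval -0.61 to 1.32) and 0.47 without (-0.50 to 1.44). The libraries overlapped in each comparison of this gene, and the intervals hold changes of either sign.

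For cnc-4 (R09B5.9) the libraries A, B and C held 38.1, 35.9 and 23.4 CPM in fed low-salt and 41.2, 35.2 and 8.48 CPM in unfed low-salt larvae. At high salt they held 52.4, 35.9 and 13.4 CPM with food and 26.4, 23.9 and 12.1 CPM without. The spread within a group exceeded any gap between groups. Its log2 fold change of high over low salt was 0.08 with food (95% interval -1.15 to 1.31) and -0.45 without (-1.68 to 0.79).

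The member best known from fungal infection, cnc-2 (R09B5.3), held 5.73, 7.17 and 3.85 CPM in fed low-salt and 7.03, 9.18 and 4.04 CPM in unfed low-salt libraries. At high salt it held 10.3, 1.51 and 1.42 CPM with food and 4.26, 1.1 and 3.41 CPM without. Fed high-salt A was thus above all low-salt libraries and the other 2 fed high-salt libraries below all of them. The log2 fold change of high over low salt was -0.28 with food (95% interval -1.77 to 1.22) and -1.24 without (-2.77 to 0.29). Without fed high-salt A, the gene was lower at high salt with food by a log2 fold change of -1.95 (edgeR adjusted p = 0.0237). That fit rests on fed high-salt B and C, which held 25 and 7 reads of the gene. Leaving out B or C instead gave 0.11 and 0.0075 (edgeR adjusted p of 0.908 and 0.995), so the sign depends on the library left out.

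Reads of cnc-9 (R13D7.11) were too few to pass the count filter: 15 in fed and 12 in unfed libraries at low salt, and 4 in fed and 2 in unfed libraries at high salt. Reads were present in all 3 fed and 2 unfed libraries at low salt, and in 1 fed and 1 unfed library at high salt. In the edgeR fit with no filter on low counts, cnc-9 passed no comparison, with adjusted p of 0.558 or more.

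**Figure D2:**
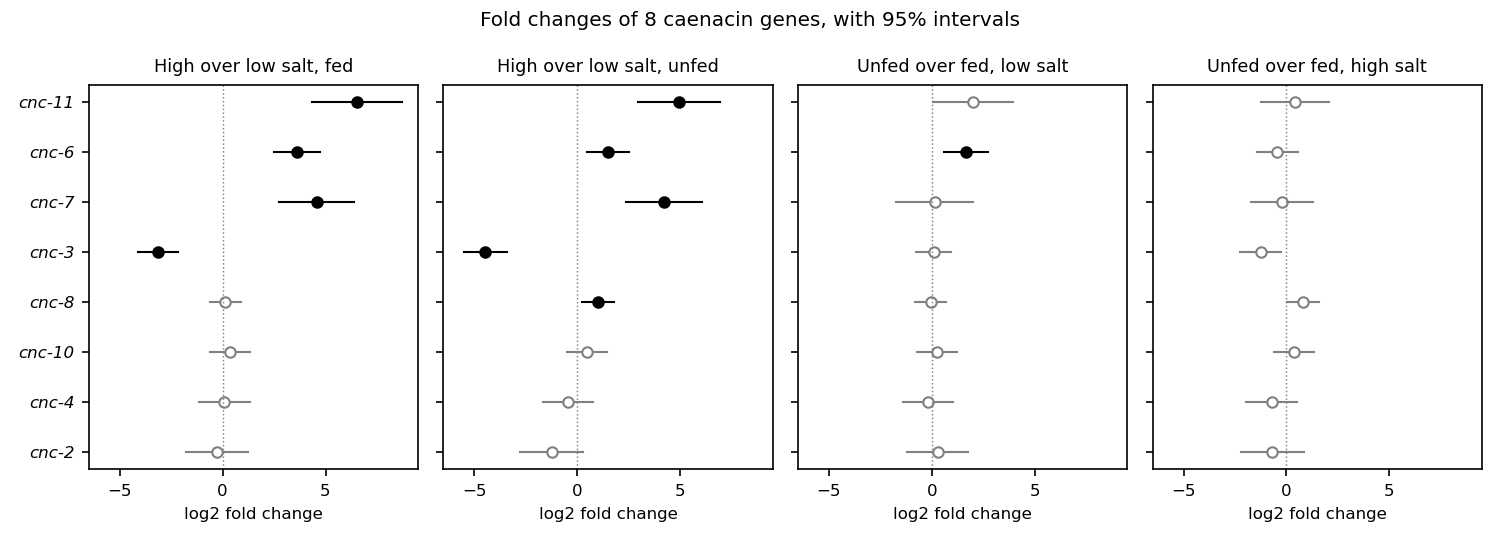
The log2 fold changes of 8 tested caenacin genes in 4 comparisons, with lines for 95% intervals. Filled points passed at an adjusted p under 0.05, and cnc-5 is left out because its low-salt groups held 0 and 1 read. The salt panels hold filled points on both sides of 0, and the food panels hold a single filled point, cnc-6 at low salt with 1.66.

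Lack of food went with fewer changes among the caenacins than salt did, and the difference in number was not tested. The same held over all tested genes. Between unfed and fed larvae 7.68% of them passed at low salt and 0.0777% at high salt. Between salt levels 38.3% passed with food and 17.9% without. At low salt, cnc-6 was the only member to pass: it was higher in unfed than in fed larvae by a log2 fold change of 1.66 ± 0.45 (edgeR adjusted p = 0.0381), with no overlap of libraries. In this comparison 3.57% of all tested genes were higher and 4.11% lower, and 41.4% had no overlap of libraries. That call was lost on leaving out any fed low-salt library, unfed low-salt A or B or fed high-salt B, with a log2 fold change of 1.36 to 1.82 and adjusted p of 0.0583 to 0.171. The authors' deposited table gives cnc-6 a log2 fold change of 1.69 and a false discovery rate of 0.00403 here.

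The level of cnc-11 averaged 1.23 ± 0.663 CPM in fed and 4.53 ± 3.29 CPM in unfed low-salt larvae (SD, n = 3). Its log2 fold change was 2.01 ± 0.84, with an edgeR adjusted p of 0.154, and the ranges of the libraries overlapped. With no filter on low counts it passed (log2 fold change 1.83, edgeR adjusted p = 0.000103), so the call depends on the settings. In the authors' deposited table the false discovery rate of cnc-11 is 0.0448, with a log2 fold change of 1.96. The other 6 tested members, cnc-5 aside, had log2 fold changes between -0.20 and 0.28, and the median over 8 members without cnc-5 was 0.19, against 0.15 over all tested genes.

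At high salt none of the 9 tested members passed between unfed and fed larvae with edgeR or with DESeq2. Of all tested genes 0.0721% were higher and 0.00555% lower. Before adjustment 2 members had p under 0.05. One was cnc-3, with a log2 fold change of -1.25 (edgeR adjusted p = 0.493) and means of 2.13 CPM unfed and 4.62 CPM fed. The other was cnc-8, with 0.82 (edgeR adjusted p = 0.578) and means of 64.5 CPM unfed and 36.2 CPM fed.

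Whether salt acted differently with and without food was tested as an interaction, the salt effect without food minus the one with food. No member passed it in the edgeR fit used throughout, where 2% of all tested genes did, and 2 had an unadjusted p under 0.05. For cnc-6 the interaction was -2.10 ± 0.63 on the log2 scale (edgeR adjusted p = 0.0904). The call for cnc-6 depends on the settings. With DESeq2 it passed, at -2.07 and an adjusted p of 0.0219, and in other edgeR fits it passed with no count filter (0.00221), without unfed low-salt C (0.0339) and without both libraries that stand apart (0.0373). For cnc-3 it was -1.34 ± 0.57 (edgeR adjusted p = 0.231).

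Set directly against each other, larvae under salt with food and larvae without food at low salt differed in 5 members, with 4 higher and 1 lower in fed high-salt larvae. Of all tested genes, 7.04% were higher and 14.5% lower. The log2 fold changes were 4.51 ± 0.84 for cnc-11, 4.44 ± 0.80 for cnc-7, 1.95 ± 0.45 for cnc-6 and -3.21 ± 0.42 for cnc-3, with edgeR adjusted p of 0.00202, 0.000896, 0.00552 and 7.23e-05. The fifth, cnc-5, had an adjusted p of 0.0429 and lost its call in 12 alternatives, with adjusted p of up to 0.176 there. This comparison changes salt and food together and shares its libraries with the others.

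**Figure D3:**
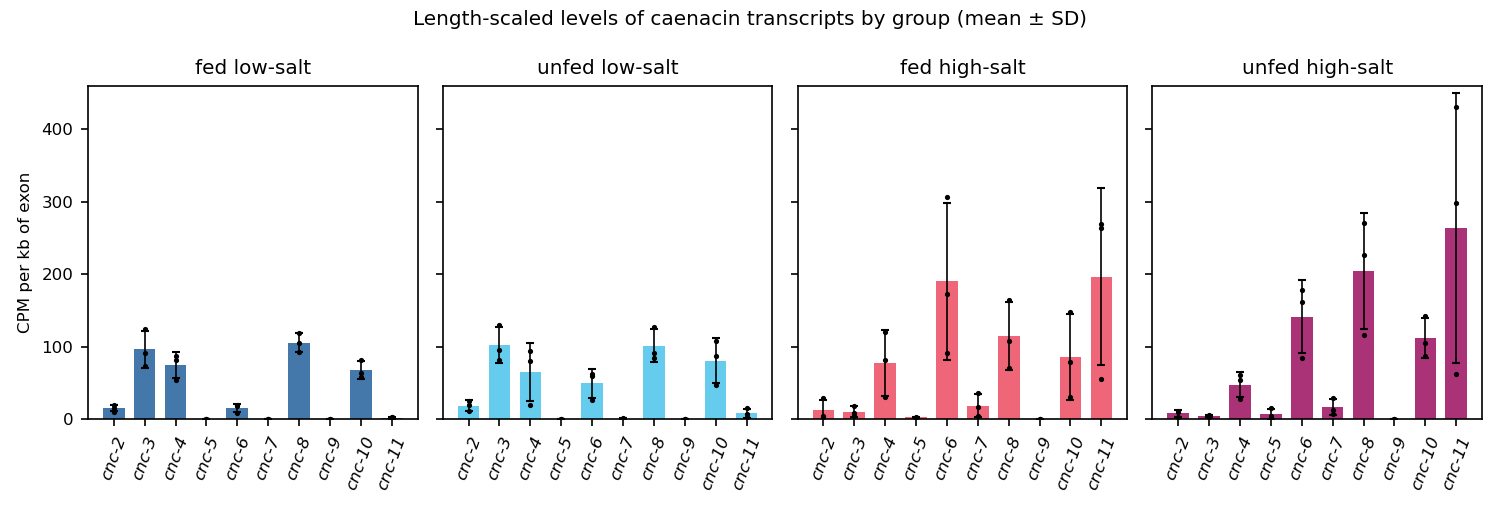
Length-scaled level of each caenacin transcript by group, in CPM per kb of exon on a linear axis from 0. Bars are means, error bars the SD of 3 libraries, and points single libraries. The tallest bars are cnc-8, cnc-3, cnc-4 and cnc-10 in the fed low-salt panel, and cnc-11, cnc-6 and cnc-8 in the fed high-salt panel.

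Divided by exon length, which runs from 207 to 525 bases in the annotation, levels can be ranked between members. In fed low-salt larvae the order was cnc-8 (106 ± 13.2 CPM per kb, SD, n = 3), cnc-3 (96.8 ± 25.6), cnc-4 (74.6 ± 18.1) and cnc-10 (68.2 ± 11.8). Each neighbour in that order overlapped the next. A gap followed, then cnc-6 (15.9 ± 5.61) and cnc-2 (15.8 ± 4.71), which overlapped, and below them and apart from each other cnc-11 (2.34), cnc-7 (0.791), cnc-9 (0.427) and cnc-5 at 0.

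Unfed low-salt larvae had the same leading genes, with cnc-3 at 103 ± 24.5 and cnc-8 at 102 ± 23 CPM per kb. The libraries of the first 5 genes in the order, cnc-3, cnc-8, cnc-10, cnc-4 and cnc-6, overlapped from neighbour to neighbour. In fed high-salt larvae the order began with cnc-11 (197 ± 122.2), cnc-6 (191 ± 108) and cnc-8 (115 ± 47.3). Neighbours overlapped down to cnc-3, which had dropped to the eighth place with 10.4 ± 7.65 CPM per kb.

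In unfed high-salt larvae cnc-11 (264 ± 186 CPM per kb), cnc-8 (205 ± 79.8), cnc-6 (142 ± 50.6) and cnc-10 (112 ± 28) led with overlapping libraries, and cnc-4 (47.8 ± 17.5) stood apart below them. Here cnc-3 was in the ninth place with 4.82 ± 1.71. Together cnc-6 and cnc-11 made up 3.44% to 5.46% of the summed length-scaled level of the 10 members in fed low-salt libraries and 10% to 17% in unfed low-salt libraries. At high salt they made up 49.99% to 59.5% with food and 27.7% to 67.6% without. The share of cnc-3 was 23.7% to 27.5%, 18% to 33.3%, 1.1% to 1.73% and 0.401% to 0.785% in the same order of groups.

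The sum over the 10 members overlapped between salt levels in both feeding states. It was 380 ± 75.6 (SD, n = 3) CPM per kb in fed and 429 ± 128 in unfed larvae at low salt, and 712 ± 400 in fed and 808 ± 250 in unfed larvae at high salt. Fed high-salt C, at 296, lay below all fed low-salt libraries, and the other 2 fed high-salt libraries, at 1093 and 745, lay above all of them.

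**Figure D4:**
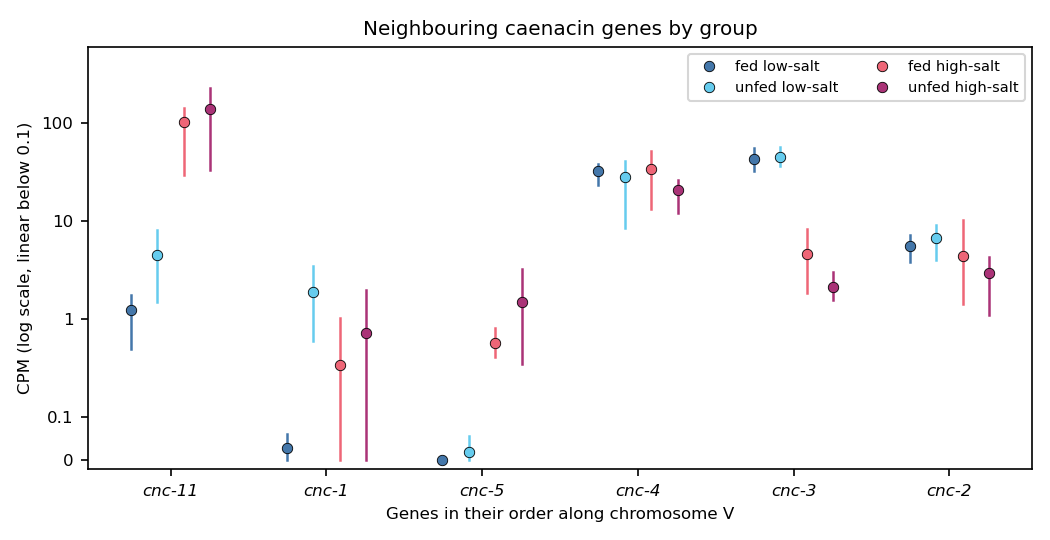
Levels of the 6 neighbouring caenacin genes in their order along chromosome V, in CPM on an axis that is logarithmic above 0.1 and linear below it. Points are group means and lines run from the lowest to the highest of 3 libraries. From left to right, cnc-11 and cnc-5 stand higher in both high-salt groups, cnc-4 and cnc-2 overlap between groups, and cnc-3 stands lower in both high-salt groups.

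On chromosome V, cnc-11, cnc-1, cnc-5, cnc-4, cnc-3 and cnc-2 follow each other with no other coding gene between them in the annotation. Members with unlike courses are thus close neighbours: cnc-5 rose and cnc-3 fell, and cnc-4, which did not pass, lies between them. The caenacin cnc-1 is not among the 10 members and is named here for its place in the row. At low salt it had 3 reads in fed and 121 in unfed libraries, at high salt 19 and 21, and passed no comparison. Only 1 fed high-salt library held reads of cnc-1. On the same chromosome but elsewhere lie cnc-9, cnc-10 and cnc-7, of which cnc-7 rose with salt.

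Across the 12 libraries, log2 CPM of cnc-11 followed that of cnc-6 (Pearson r = 0.96) and cnc-7 (r = 0.94), and cnc-7 followed cnc-5 (r = 0.92). The levels of cnc-8 and cnc-10 also went together (r = 0.83). The fall of cnc-3 gave negative values, of -0.84 with cnc-11 and -0.85 with cnc-5. These coefficients are descriptions: the libraries fall into salt groups and share depth and scaling.

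The summed level of the 6 members that passed any comparison was most like that of nlp-29 (r = 0.97 over 12 libraries) and nlp-28 (r = 0.97). These are genes of the nlp family with antimicrobial roles. The summed members were picked by calls in these same libraries, mostly for salt, so genes that rise with salt were likely to rank high. The sum also holds cnc-3, which went the other way. The ranking is thus a description only. The next in order were F56A8.5, F59C12.4, dyf-19, emre-1, ttr-17 and R05D7.1, each with r = 0.96. The level of nlp-29 averaged 59.6 ± 13.3 CPM in fed and 53.0 ± 16.3 CPM in unfed larvae at low salt, and 224 ± 161 and 223 ± 100.5 CPM at high salt (SD, n = 3). With food its libraries overlapped between salt levels, since fed high-salt C held 51.0 CPM.

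Other epidermal peptide genes also moved both ways. Of 15 tested, 3 were higher and 5 lower at high salt with food, and 2 were higher and 3 lower without, with median log2 fold changes of -1.23 and -1.04. Beside these stand 16.1% higher and 22.1% lower of all tested genes with food, and 6.72% and 11.2% without, which with 15 genes are near the counts of the list. The gene nlp-28 rose by a log2 fold change of 2.54 with food and 2.05 without, and nlp-29 by 1.92 and 2.07. The gene nlp-32 passed with food (6.05, edgeR adjusted p = 0.00398) and not without (3.23, 0.0685), and that difference did not pass as an interaction.

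Lower at high salt in both feeding states were nlp-33 (-1.93 with food, -1.34 without), fipr-1 (-4.76 and -4.64), a gene of the fungus-induced protein family, and grsp-1 (-4.01 and -2.03), which codes for a glycine-rich secreted protein. With food, nlp-25 (-3.58) and nlp-26 (-1.70) also fell. The values of nlp-27, nlp-30 and nlp-31, close kin of nlp-29, were -1.23, -1.14 and -1.24 with food and -1.33, -1.40 and -1.04 without, and none passed. Nor did nlp-24 (-0.61 and 0.83) or nlp-34 (0.12 and -0.64).

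The DBL-1 pathway, the route that raises cnc-2 in infection, had 15 tested genes, of which 3 were higher and 3 lower at high salt with food, and 1 higher and 3 lower without. These counts are also near the shares of all tested genes just given. The median log2 fold changes were -0.10 and -0.32. The gene lon-1, a secreted protein whose transcript DBL-1 signalling is known to repress, was lower by a log2 fold change of -4.04 with food and -4.62 without. The receptor gene sma-6 was lower in both (-1.04 and -1.53), and of the Smad genes sma-3 was lower with food (-1.05) and sma-2 without (-1.29). The gene of the chordin-like protein CRM-1 was higher in both (1.91 and 1.21).

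Of 23 genes of the epidermal p38 pathway, 5 were higher and 1 lower at high salt with food, and 3 higher and 1 lower without. Of all tested genes 16.1% were higher and 22.1% lower with food, and 6.72% and 11.2% without. With food the higher count is near its share and the lower count below its share. Without food the higher count is above its share and the lower count below. These differences from the shares were not tested. The median log2 fold changes of the 23 genes were 0.32 and 0.21. The transporter gene snf-12, needed for nlp-29 expression in infection, was higher by 1.52 with food and 1.00 without, and tir-1, an adaptor upstream of the kinases, by 1.23 and 1.1. The upstream kinase gene nsy-1 was higher with food (1.38), and the scaffold gene rack-1 was lower in both (-1.25 and -0.99).

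Genes tied to the sensing of osmotic stress and cuticle damage included many that fell. Loss of most of these genes is known to set off those responses. Any part of their lower levels in the caenacin changes was not tested. Of 12, 8 were lower at high salt in each feeding state, against 22.1% of all tested genes with food and 11.2% without, and wnk-1, a kinase gene of the osmotic response, was higher with food (1.03, edgeR adjusted p = 0.0498). The medians were -3.62 and -4.19. The annular furrow collagen genes dpy-2, dpy-3, dpy-7, dpy-8, dpy-9 and dpy-10 were among the 8, with dpy-3 at -5.42 and -5.95, as were osm-8 (-2.71 and -4.30) and osm-11 (-2.86 and -3.37). One of them, dpy-7, is also on the epidermal marker list. No gene of these 4 lists passed in the food comparisons or the interaction.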

How the data were processed

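The authors deposited 12 files of raw counts per gene. Bowtie 1.1.2 and HTSeq are named in the submitters' processing notes. The build and counting settings are not given in the sources used here, so no coordinates are printed. The authors' deposited tables give log2 fold changes and p-values, as false discovery rates from an edgeR exact test on genes over 1 CPM in 3 libraries, per the workbook's notes.

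The tests used edgeR 4.0.16 under R 4.3.3. There filterByExpr (minimum count 10, minimum total 15) kept 18028 genes, TMM scaled the libraries, and all 12 entered a model with 1 coefficient per group. Each contrast had a two-sided robust quasi-likelihood F-test, adjusted by Benjamini-Hochberg over all genes per comparison. SE is the log2 fold change divided by the square root of F, and 95% intervals use 8 residual degrees of freedom. The F-tests add prior degrees of freedom to these, so the intervals are wider than the tests beside them would give. Steps were tested on simulated counts. CPM carry no prior, and correlations use log2 CPM with a prior count of 2. Names and exon lengths come from RefSeq and Ensembl tables of WBcel235.

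The members and gene lists were chosen with earlier results of these data known. All members are named. Of listed genes, the text names those called, up to 4 a list and comparison by p, and the nlp genes; 8 genes of like pattern are named by correlation. The remaining dpy and osm genes and wnk-1 were named after their values were seen. Alternatives were a replicate block, DESeq2 1.42.0, upper-quartile scaling, TMM without rRNA genes, 2 count filters, fits of only the groups compared, and libraries left out. Depth ranged from 5613260 to 76542711 reads on genes, and intervals on reads cover counting error only.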

Additional observations from a re-analysis of the deposited data

How the results depend on the processing

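Over 20 alternative settings, 954 of 1049 alternative values of single members kept direction and side of the threshold, 36 lost and 10 gained a call, and 49 changed sign, none of them in a called value. The number of members called between unfed and fed low-salt larvae was 2 with the replicate block and 2 with no filter, where cnc-11 joined cnc-6 (adjusted p 0.00416 and 0.000103), and 0 to 1 with a library left out. For salt with food and for fed high-salt against unfed low-salt it was 3 with the 5 CPM filter and 3 with only the groups compared. Those settings test fewer genes, without cnc-5 and cnc-7. For salt without food it was 3 to 6 with a library left out. In the interaction it was 1 (cnc-6) with the replicate block (log2 value -1.97, adjusted p 0.00622), with DESeq2, with no filter and without both odd libraries, and 0 to 1 with a library left out. The labels do not say whether the replicate letters pair samples. Same-letter deviations correlated from -0.094 to 0.352, with 7 of 18 over 0.1. Their median was 0.045, against -0.027 for pairs of unlike letters.

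Counts over all genes moved as follows. Between unfed and fed low-salt larvae they were 2658 (DESeq2), 3524 (only the groups compared), 3238 (both odd libraries out) and 218 to 2989 (1 library out), against 1384. For salt without food only the groups compared gave 1811, against 3230. Between unfed and fed high-salt larvae they were 30 (replicate block), 94 (DESeq2), 207 (no filter), 1 (only the groups compared), 9 (both odd libraries out) and 0 to 32, against 14. In the interaction they were 585 (replicate block), 1225 (DESeq2), 1019 (no filter), 615 (5 CPM filter), 630 (both odd libraries out) and 63 to 967, against 360. For fed high-salt against unfed low-salt a library left out gave 2497 to 5201, against 3885. The cause was not tested. The interaction was not run on only the groups compared, since it needs all 4.

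Sign changes were all in values not called, also for members that passed in other comparisons. Between unfed and fed low-salt larvae, log2 fold changes were -0.0403 for cnc-3 and -0.0223 for cnc-7 with no filter, -0.31 for cnc-7 with the replicate block, 0.0533 for cnc-4 and 0.16 for cnc-8 with upper-quartile factors, and 0.11 for cnc-8 with the 5 CPM filter. Ranges with 1 library out were -0.0248 to 0.48 (cnc-2), -0.13 to 0.28 (cnc-3), -0.58 to 0.13 (cnc-4), -0.62 to 0.33 (cnc-7), -0.27 to 0.0086 (cnc-8) and -0.0422 to 0.42 (cnc-10). For salt with food, values were 0.11 (upper quartile) and 0.0531 (both odd libraries out) for cnc-2, -0.13 (replicate block) and -0.15 (no filter) for cnc-4 and -0.10 (no filter) for cnc-8. Ranges were -1.95 to 0.11 (cnc-2), -0.41 to 0.37 (cnc-4), -0.27 to 0.29 (cnc-8) and -0.32 to 0.66 (cnc-10). Between unfed and fed high-salt larvae, both odd libraries out gave -0.17 for cnc-10 and -0.0765 for cnc-11, with ranges of -1.11 to 0.96 (cnc-2), -0.74 to 0.0865 (cnc-6), -0.88 to 0.59 (cnc-7) and -0.16 to 0.88 (cnc-11). In the interaction, values were 0.22 for cnc-7 (replicate block) and -0.09 (upper quartile) and -0.39 (both odd libraries out) for cnc-10, with ranges of -1.37 to 0.70 (cnc-2), -1.88 to 1.30 (cnc-5), -0.998 to 0.48 (cnc-7) and -0.18 to 0.77 (cnc-10). For fed high-salt against unfed low-salt, cnc-10 was -0.0167 with the replicate block, with ranges of -0.19 to 0.64 (cnc-4), -0.19 to 0.40 (cnc-8) and -0.55 to 0.47 (cnc-10).

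Upper-quartile factors moved the all-gene median from 0.15 to 0.36 between unfed and fed low-salt larvae and from 0.12 to 0.55 for salt with food. Depth limits cnc-5 and cnc-9, and in fed high-salt C 1 read weighs 0.203 CPM.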

Other observations

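The C library was the lowest of its 3 in all 4 groups for cnc-4, cnc-6 and cnc-11, a pattern noticed after the values were seen. Among all 18028 tested genes, C was the lowest in every group for 2.97%, A for 1.19% and B for 1.19%. No member had A or B lowest in every group. The labels do not say what a letter shares.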
